A study of Mus musculus with 18 samples.

Results

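C-type lectin receptors were followed as 10 genes in mouse monocytes and in the monocyte-derived cells (MDCs) grown from them. The genes were taken by name from a table of 20298 genes: *Cd209a*, *Clec4a1*, *Clec4a2*, *Clec4a3*, *Clec4d*, *Clec4e*, *Clec4n*, *Clec7a*, *Clec10a* and *Mgl2*. Each was read in every one of the 18 RNA-seq libraries. The study compared wild-type (WT) mice with double knock-in (DKI) mice, whose altered N-terminal domains of STAT5A and STAT5B allow STAT5 dimers but not tetramers. Both genotypes were on the C57BL/6 strain, and the mutation was carried by every cell of the DKI mice. Ly6C+ CCR2+ monocytes were either left untreated (day 0) or cultured with 20 ng/mL granulocyte-macrophage colony-stimulating factor (GM-CSF) for 3 or 6 days, which gave 6 groups of 3 libraries. The monocytes were enriched by removal of other marrow cells rather than sorted, so each library is a mixed culture, and the ages of the mice are not given in the sources used here.

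C-type lectin receptors are surface proteins of phagocytes and dendritic cells that carry a C-type lectin-like domain, and many of them bind sugars or glycolipids of microbes and of damaged cells. Some start activation through an ITAM, either within the receptor or in the adaptor FcRγ, which engages the kinase SYK and the CARD9 complex, whereas others carry an ITIM that recruits phosphatases and restrains activation. In monocyte-derived cells these receptors take up antigen and sense fungi and mycobacteria, and several of them serve as markers of dendritic cells or macrophages.

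All 10 genes were well above the detection limit. The recovered depth of the libraries was 29.5 to 43.2 M reads, at which 3 reads on a 1 kb transcript amount to 0.1015 RPKM (reads scaled to transcript length and library size) in the shallowest library, and the lowest value of any of the 10 genes was 1.46 RPKM. Libraries of 1 group correlated at 0.963 to 0.989, and no pair was identical. The mutated gene *Stat5a* was called lower in cultured DKI libraries, with a difference of −1.67 on day 3 (adjusted p = 0.0224) and one of −1.68 on day 6 (0.0357, and 0.0516 with replicate number as a block). On day 0 its difference was −0.08 and was not called. Liver is given as the tissue of the samples and bone marrow in the design text, and none of 5 hepatocyte markers exceeded 0.0470 RPKM in any library. Replicate 1 of days 3 and 6 has library names that carry an earlier year than all other libraries. Summed RPKM of 9 neutrophil and granulocyte precursor markers was 2424 to 5126 for day 0 libraries, 187 to 4478 for day 3 and 21.95 to 3074 for day 6. In bulk libraries, fewer cells that carry a transcript and less transcript in each cell cannot be told apart.

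Most of the 10 genes lie on chromosome 6 (positions from RefSeq, mm10). Within 368.0 kb stand *Clec4a1* (chr6:122921848-122934619), *Clec4a3* (chr6:122952515-122969878), *Clec4a2* (chr6:123122690-123143999), *Clec4n* (chr6:123229843-123247024), *Clec4d* (chr6:123262107-123275268) and *Clec4e* (chr6:123281789-123289871). All but *Clec4e* are on the plus strand. *Clec7a* (chr6:129461591-129472785, minus strand) stands 6171.7 kb further on. *Mgl2* (chr11:70130125-70137542) and *Clec10a* (chr11:70166623-70170836) are plus-strand neighbours within 40.7 kb, and *Cd209a* (chr8:3743395-3748984) is on the minus strand of chromosome 8. Near-identical copies make some levels uncertain: 13.45% of the 50-base stretches of the *Mgl2* transcript and 8.63% of those of *Clec10a* were shared between these genes, and 6.15% of those of *Clec4a2* were shared with *Clec4a4* or *Clec4b1*. No stretch of the other 7 genes was shared with any of the 23 lectin genes compared.

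Promoter sequence is shown for 4 genes: *Clec4a1* and *Clec4a3*, neighbours whose RNA moved together, their neighbour *Clec4a2*, which was not called in any comparison of all libraries, and *Cd209a*, which differed most between the genotypes. Each run gives the 250 bases before the annotated start (RefSeq, GRCm38.p6), 5′ to 3′ on the strand of the gene, and the table of promoters held 8 of the 10 genes (not *Clec10a* or *Clec4n*). Capitals mark matches to TTCNNNGAA, the palindromic core of the STAT motif, or to GAGGAA on either strand, a core bound by ETS factors such as PU.1.
Clec4a1, chr6:122921598-122921847, plus strand: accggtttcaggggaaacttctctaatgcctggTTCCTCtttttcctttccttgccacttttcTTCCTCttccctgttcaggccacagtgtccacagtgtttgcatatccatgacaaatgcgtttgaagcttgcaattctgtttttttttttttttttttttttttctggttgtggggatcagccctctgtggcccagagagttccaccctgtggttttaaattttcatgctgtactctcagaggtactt
Clec4a3, chr6:122952265-122952514, plus strand: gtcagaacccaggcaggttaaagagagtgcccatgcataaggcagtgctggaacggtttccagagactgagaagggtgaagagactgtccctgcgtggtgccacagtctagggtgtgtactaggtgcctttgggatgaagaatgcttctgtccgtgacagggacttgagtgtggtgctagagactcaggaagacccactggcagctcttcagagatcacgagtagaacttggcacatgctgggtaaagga
Clec4a2, chr6:123122440-123122689, plus strand: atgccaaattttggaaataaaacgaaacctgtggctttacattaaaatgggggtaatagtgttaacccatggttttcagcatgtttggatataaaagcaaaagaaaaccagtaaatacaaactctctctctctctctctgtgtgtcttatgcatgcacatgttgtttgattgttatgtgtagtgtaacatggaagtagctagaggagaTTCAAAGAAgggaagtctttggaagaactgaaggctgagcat
Cd209a, chr8:3748985-3749234, minus strand: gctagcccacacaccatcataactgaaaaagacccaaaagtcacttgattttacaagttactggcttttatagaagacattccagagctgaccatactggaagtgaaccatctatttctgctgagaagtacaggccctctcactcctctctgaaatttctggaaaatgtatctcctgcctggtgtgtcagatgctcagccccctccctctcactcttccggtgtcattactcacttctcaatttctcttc
The STAT core was found in 1 of the 8 promoters, that of *Clec4a2* (TTCAAAGAA, 42 to 34 bases before the start), beside 7.14% of 27025 promoters of the same length. GAGGAA was found in 5 of the 8 (*Clec4d*, *Mgl2*, *Clec4a1*, *Clec4e* and *Clec7a*), beside 23.1% of all promoters. The start used for *Mgl2* lies inside the gene as positioned above, and so do its match and most of its window. No match to one motif overlapped a match to the other. These matches describe letters in a window and were not tested for binding.

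Before culture, no difference between WT and DKI monocytes was called in any of the 10 genes. The differences in log2(RPKM + 1) between the genotypes ranged from −0.18 (*Clec4n*) to 0.09 (*Clec4e*). The intervals were narrow for *Clec4a2* (95% confidence interval −0.53 to 0.30) and wide for *Clec4d* (−2.57 to 2.47), whose standard error was 1.04 without and 0.124 with replicate number as a block. Of all genes tested, limma called 0 of 9179 (0%), with an unadjusted p under 0.05 in 44 (352 with the block). Here and below, a gene is called at a Benjamini-Hochberg adjusted p under 0.05 over all genes tested and a fold change over 1.5. In both genotypes *Clec4e* and *Clec7a* led by mean RPKM on day 0 and *Mgl2* was lowest. In WT monocytes the means were 430 ± 281 RPKM for *Clec4e*, 406 ± 115 for *Clec7a*, 196 ± 155 for *Clec4d*, 90.7 ± 53.0 for *Clec4n*, 86.7 ± 29.9 for *Clec4a1*, 76.5 ± 15.8 for *Clec4a3*, 41.8 ± 6.8 for *Clec4a2*, 14.6 ± 5.0 for *Clec10a*, 6.90 ± 4.37 for *Cd209a* and 3.95 ± 2.17 for *Mgl2* (SD, n = 3). The ranges of neighbours in this order overlapped except between *Clec4a3* and *Clec4a2* and between *Clec4a2* and *Clec10a*.

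**Figure D1:**
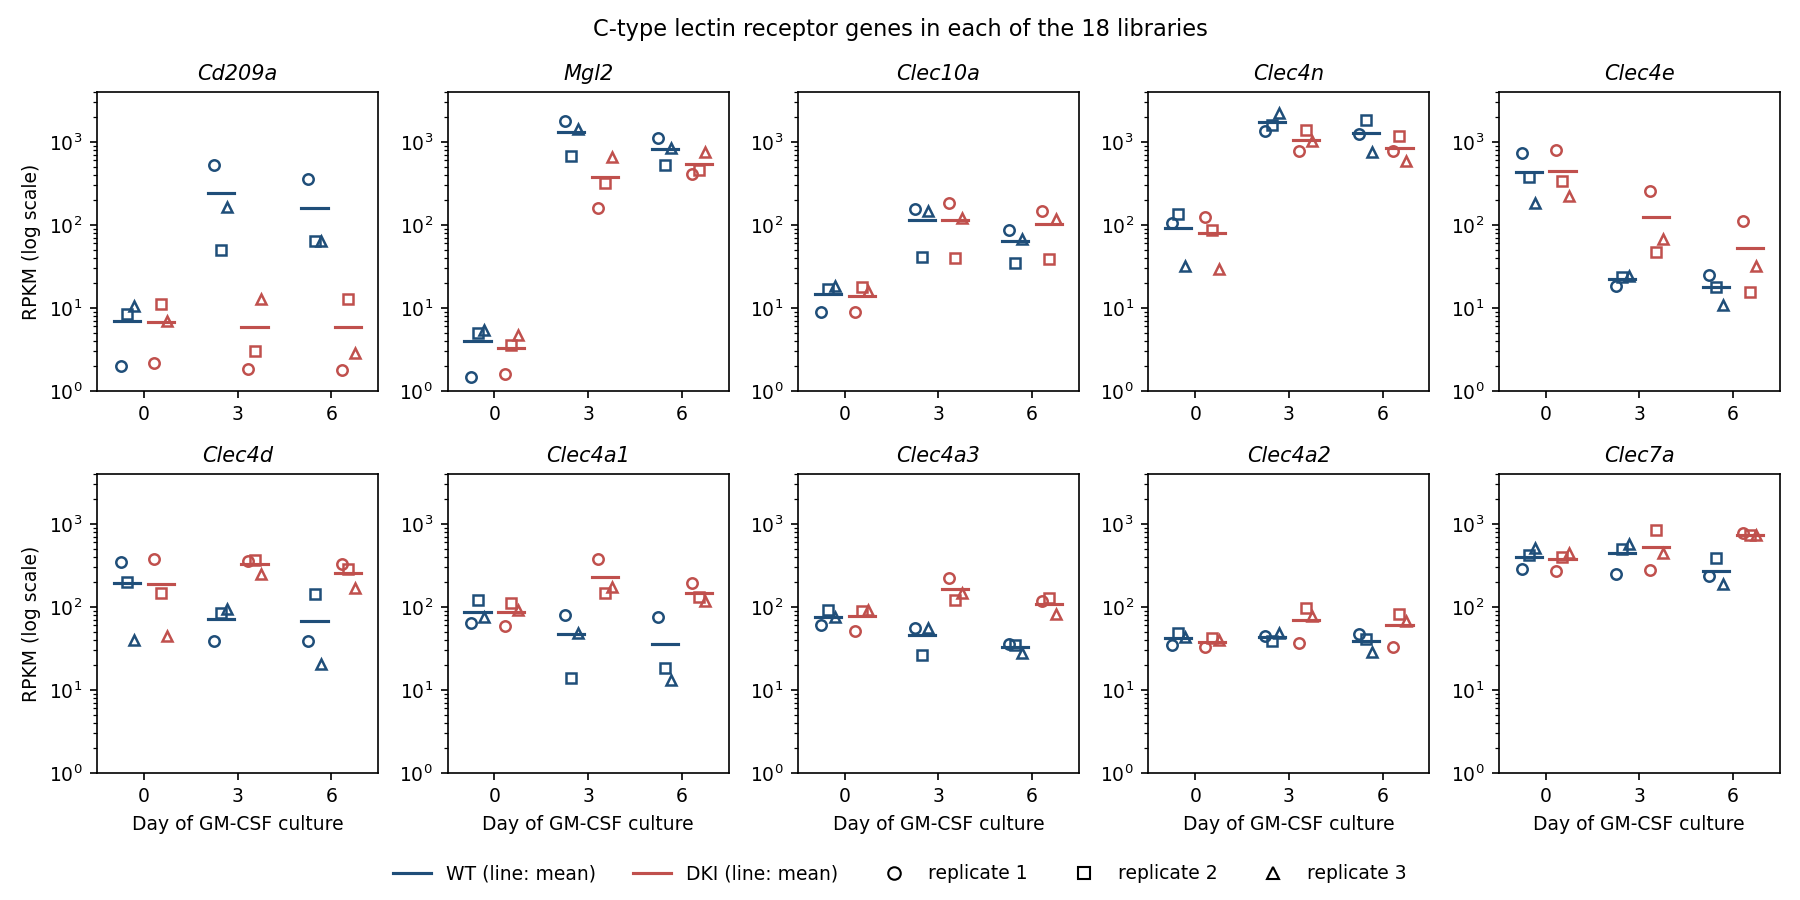
RPKM on a log scale of the 10 C-type lectin receptor genes against the day of GM-CSF culture, with WT in blue and DKI in red. Symbols mark the replicate number of each of the 18 libraries and lines the mean of 3. *Cd209a* separates the genotypes on days 3 and 6 with WT above, and *Clec4a1*, *Clec4a3* and *Clec4d* separate them with DKI above.

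*Cd209a*, one of the mouse relatives of human DC-SIGN and a marker of monocyte-derived dendritic cells, was higher in WT than in DKI MDCs on both days of culture. On day 3 it stood at 523, 50.3 and 163 RPKM in the WT libraries, against 1.82, 3.00 and 12.9 RPKM in DKI. The day 6 values were 354.5, 63.5 and 63.9 RPKM in WT and 1.77, 12.9 and 2.82 RPKM in DKI. Every WT library of days 3 and 6 stood above every DKI library. The cultured DKI libraries ran from 1.77 to 12.9 RPKM, beside 2.00 to 11.04 RPKM in the day 0 libraries of both genotypes. The difference between the genotypes on day 3 was −4.93 ± 0.95 (log2 fold change ± SE, DKI over WT), 30.4-fold lower in DKI (adjusted p = 0.0329), and on day 6 −4.43 ± 0.86, 21.6-fold lower (adjusted p = 0.0362). With replicate number as a block, neither was called (adjusted p = 0.0563 and 0.0617). On day 3 the call was also lost without WT replicate 1 (−4.09, adjusted p = 0.0875), WT replicate 3 (−4.93, 0.105), DKI replicate 1 (−4.46, 0.0648) or DKI replicate 2 (−4.71, 0.0784), and it was kept without WT replicate 2 (−5.76, 0.0432) or DKI replicate 3 (−5.61, 0.0400). On day 6 it was kept only without DKI replicate 2 (−5.13, adjusted p = 0.0232), and the other omissions gave −4.85 to −3.62 with adjusted p = 0.0512 to 0.112. Without the earlier-named replicate 1 the differences were −3.62 on day 3 (adjusted p = 0.0955) and −3.15 on day 6 (0.152). From day 0 to day 3 *Cd209a* rose by 4.59 ± 0.87 in WT (adjusted p = 0.0053), whereas the change in DKI was −0.31 ± 0.71 (adjusted p = 0.751).

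*Mgl2* and *Clec10a* encode the galactose-type lectins CD301b and CD301a, which bind galactose and N-acetylgalactosamine, and *Mgl2* marks a dendritic cell subset of the skin. *Mgl2* made the largest rise of the 10 genes. It went from 1.46, 4.97 and 5.43 RPKM to 1769, 684 and 1450 RPKM on day 3 in WT, a log2 fold change of 8.05 ± 0.48 (adjusted p = 6.83e-05). In DKI it went from 1.58, 3.60 and 4.72 RPKM to 162, 319 and 652 RPKM, a log2 fold change of 6.31 ± 0.54 (adjusted p = 9.83e-04). All 3 DKI libraries of day 3 were below all 3 WT libraries, but the difference of −1.90 ± 0.59 was not called (adjusted p = 0.110, 0.125 with the block), and the change in genotype difference from day 0 to day 3 was not called either (−1.74 ± 0.80, adjusted p = 0.323). On day 6 the groups overlapped, with 1109, 528 and 836 RPKM in WT and 415, 459 and 749 RPKM in DKI (−0.59 ± 0.36, adjusted p = 0.329).

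*Clec10a* rose in both genotypes, by 2.73 ± 0.53 in WT (adjusted p = 0.00577) and by 2.75 ± 0.57 in DKI (adjusted p = 0.0128) from day 0 to day 3. Its values on day 3 were 155, 41.5 and 147 RPKM in WT and 184, 39.8 and 121 RPKM in DKI. Libraries of the same replicate number were close and replicate 2 was lowest in both genotypes. The genotype difference was −0.03 ± 0.72 on day 3, with a 95% confidence interval of −1.75 to 1.69 (under the block its standard error was 0.179), and 0.57 ± 0.57 on day 6 (adjusted p = 0.542). The ratio of *Mgl2* to *Clec10a* RPKM, 0.163 to 0.299 in all day 0 libraries, was 9.85 to 16.5 in WT and 0.882 to 8.03 in DKI on day 3, and 12.5 to 15.2 in WT and 2.85 to 11.8 in DKI on day 6. These ranges did not overlap between the genotypes on either day and were not tested, and because the transcripts of both genes share stretches the ratio depends on how shared reads were counted.

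Dectin-2, Mincle and MCL, encoded by *Clec4n*, *Clec4e* and *Clec4d*, are activating receptors that signal through FcRγ, and Mincle and MCL recognise mycobacterial glycolipid together. *Clec4n* rose in both genotypes, *Clec4e* fell in WT, and *Clec4d* was higher in DKI than in WT on day 3. *Clec4n* went from 107, 134 and 31.6 RPKM to 1353, 1599 and 2215 RPKM in WT by day 3 (log2 fold change 4.44 ± 0.52, adjusted p = 8.97e-04). In DKI it went from 123, 86.0 and 29.1 RPKM to 782, 1402 and 1016 RPKM (3.92 ± 0.54, adjusted p = 0.00384). By mean RPKM it was the highest of the 10 genes in every cultured group. In each of the 3 replicate numbers the DKI library of day 3 was below its WT counterpart, but the difference of −0.70 ± 0.34 was not called (adjusted p = 0.250), nor was that of −0.56 ± 0.41 on day 6 (adjusted p = 0.411).

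*Clec4e* fell from 735, 373 and 182 RPKM on day 0 to 18.4, 23.8 and 24.1 RPKM on day 3 in WT, by 4.01 ± 0.46 on the log2 scale (adjusted p = 8.48e-04). In DKI the values went from 791, 342 and 220 RPKM to 259, 46.9 and 67.0 RPKM, a change of −2.05 ± 0.73 that was not called (adjusted p = 0.0674), though it was called without DKI replicate 1 of day 3 (−2.78, adjusted p = 0.0142). All DKI libraries of day 3 were above all WT libraries. The genotype difference of 2.04 ± 0.61 was not called (adjusted p = 0.0974), but was called without DKI replicate 1 of day 3 (1.31, adjusted p = 0.0264). On day 6 the groups overlapped, with 24.8, 17.7 and 10.7 RPKM in WT and 112, 15.6 and 32.2 RPKM in DKI (1.16 ± 0.70, adjusted p = 0.320).

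*Clec4d* held 38.5, 84.2 and 94.7 RPKM in WT and 362, 366 and 251 RPKM in DKI on day 3. The groups stood apart, and *Clec4d* was 4.71-fold higher in DKI (2.24 ± 0.37, adjusted p = 0.0236), a call that was lost with the block (adjusted p = 0.0530). It was also lost without WT replicate 2 (2.39, adjusted p = 0.0667), WT replicate 3 (2.48, 0.0525) or DKI replicate 2 (2.14, 0.0604), and it was kept without replicate 1 of both genotypes (1.75, adjusted p = 0.0384). On day 6 the values were 38.4, 144 and 20.3 RPKM in WT and 326, 286 and 168 RPKM in DKI, again without overlap, and the difference of 2.34 ± 0.69 was not called (adjusted p = 0.0858) except without WT replicate 2 (3.12, adjusted p = 0.0220). Neither genotype changed past the threshold from day 0 to day 3: *Clec4d* went by −1.05 ± 0.77 in WT (adjusted p = 0.297, and −1.95 with adjusted p = 0.0174 without WT replicate 3 of day 0) and by 1.24 ± 0.71 in DKI (adjusted p = 0.211, and 1.97 with adjusted p = 0.0484 without DKI replicate 1 of day 0). The day 0 values ran from 39.9 to 351 RPKM in WT and from 44.7 to 375 RPKM in DKI, with replicate 1 highest and replicate 3 lowest in both.

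Markers of neutrophils and their precursors were followed beside *Clec4d* and *Clec4e*. All 9 had a positive difference (DKI over WT) on day 3, with a median of 1.76 beside −0.11 over all genes, and on day 6, with a median of 0.45 beside −0.17. By limma 0 of the 9 were called on either day, with or without the block, and 2 on day 3 and 0 on day 6 had an unadjusted p under 0.05. On day 0 the summed RPKM of the 9 markers was 4302, 4277 and 2424 in WT and 5126, 3029 and 2584 in DKI for replicates 1, 2 and 3. Replicate 3, lowest in *Clec4d* and *Clec4e*, was also lowest in this sum in both genotypes. The single markers were split: *Elane* (397 RPKM in WT and 368 in DKI), *Mpo* (361 and 371) and *Prtn3* (515 and 527) were highest in replicate 3, and the others were lowest. On day 3 the sum was 187, 4478 and 289 in WT and 1841, 2824 and 562 in DKI. In the same order *Clec4d* held 38.5, 84.2 and 94.7 RPKM in WT and 362, 366 and 251 RPKM in DKI. On day 6 the sum was 582, 592 and 21.95 in WT and 3074, 254 and 38.3 in DKI. *Clec4d* then held 38.4, 144 and 20.3 RPKM in WT and 326, 286 and 168 RPKM in DKI. Apart from these values, the part of neutrophil RNA in the *Clec4d* and *Clec4e* differences was not tested.

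The *Clec4a* genes encode receptors of the DCIR family: *Clec4a2* encodes DCIR itself, which carries an ITIM, *Clec4a3* encodes DCIR3 and *Clec4a1* encodes DCIR4. *Clec4a3* was called higher in DKI on both days, *Clec4a1* was higher by a larger fold but with more spread, and *Clec4a2* was not called. *Clec4a3* held 55.4, 26.4 and 56.0 RPKM in WT and 222, 121 and 147 RPKM in DKI on day 3, and 35.3, 34.4 and 27.8 RPKM in WT and 117, 127 and 82.4 RPKM in DKI on day 6. Every DKI library was above every WT library on both days. On day 3 the difference was 1.84 ± 0.37 (3.58-fold, adjusted p = 0.0363, or 0.0279 with the block). That of day 6 was 1.70 ± 0.21 (3.24-fold, adjusted p = 0.0145, 0.0178 with the block). The call of day 3 was lost on omission of any 1 of the 6 libraries (1.49 to 2.03, adjusted p = 0.0547 to 0.0907), and that of day 6 was lost without WT replicate 1 (1.76, adjusted p = 0.0584) or WT replicate 3 (1.59, 0.0604). Without replicate 1 of both genotypes the differences were 1.77 on day 3 (adjusted p = 0.0881) and 1.69 on day 6 (0.130).

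*Clec4a1* correlated with *Clec4a3* over the 18 libraries (r = 0.929), but spread more than *Clec4a3* in WT on day 6. Its values on day 3 were 80.5, 13.9 and 48.2 RPKM in WT and 373, 146 and 175 RPKM in DKI, and on day 6 they were 75.4, 18.4 and 13.3 RPKM in WT and 197, 131 and 120 RPKM in DKI. The groups stood apart on both days. The differences of 2.45 ± 0.67 (5.46-fold) and 2.41 ± 0.62 (5.30-fold) were not called (adjusted p = 0.0816 and 0.0650), but both were called with replicate number as a block (0.0342 and 0.0418), which removes the shared order of the replicates. That of day 6 was also called without WT replicate 1 (3.14, adjusted p = 0.0300), and the other omissions gave 1.93 to 2.55 (0.0879 to 0.188). On day 3 omission of single libraries gave 1.75 to 2.98 (adjusted p = 0.0969 to 0.170). *Clec4a2* held 44.2, 38.9 and 47.9 RPKM in WT and 36.6, 96.9 and 77.0 RPKM in DKI on day 3, where 1 DKI library was below all WT libraries. Its difference was 0.57 ± 0.36 on day 3 (adjusted p = 0.361) and 0.57 ± 0.38 on day 6 (0.363). Without DKI replicate 1 of day 3, the library below the WT values, *Clec4a2* was called on day 3 (0.97, adjusted p = 0.0288).

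From day 0 to day 3 *Clec4a1* and *Clec4a3* were called in DKI, and none of the 3 *Clec4a* genes was called in WT. In DKI *Clec4a1* rose by 1.32 ± 0.41 (adjusted p = 0.0462) and *Clec4a3* by 1.06 ± 0.32 (adjusted p = 0.0427), whereas in WT they changed by −1.11 ± 0.60 (adjusted p = 0.163) and −0.78 ± 0.32 (adjusted p = 0.0792). Both rises in DKI were close to the threshold: on omission of single libraries each was kept only without DKI replicate 2 of day 3 (1.59, adjusted p = 0.0445, and 1.25, 0.0473), and the other omissions gave 0.92 to 1.53 (adjusted p = 0.0589 to 0.131) for *Clec4a1* and 0.79 to 1.21 (0.0656 to 0.107) for *Clec4a3*. *Clec4a2* changed by 0.07 ± 0.17 in WT (adjusted p = 0.748) and by 0.75 ± 0.36 in DKI (adjusted p = 0.143), and was called in DKI without replicate 1 of day 3 (1.16, adjusted p = 0.00766).

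*Clec7a* encodes dectin-1, the receptor for fungal β-glucan, and was called higher in DKI on day 6 but not on day 3. On day 3 it stood at 251, 505 and 581 RPKM in WT and at 276, 857 and 449 RPKM in DKI (0.18 ± 0.51, adjusted p = 0.853). On day 6 they held 235, 387 and 188 RPKM in WT and 781, 728 and 730 RPKM in DKI. The 3 DKI libraries lay close together and above all WT libraries, and the difference was 1.53 ± 0.29 (2.89-fold, adjusted p = 0.0341, 0.0491 with the block). The call was kept without WT replicate 2 (1.82, adjusted p = 0.0201) or DKI replicate 2 (1.55, 0.0490) and lost without WT replicate 1 (1.46, 0.122), WT replicate 3 (1.30, 0.114), DKI replicate 1 (1.498, 0.0775) or DKI replicate 3 (1.55, 0.0988). It was also lost without replicate 1 of both genotypes (1.43, adjusted p = 0.2205). Whether the genotype difference grew from day 3 to day 6 was tested as an interaction, which was not called (1.36 ± 0.62, adjusted p = 0.9998). From day 0 to day 3 *Clec7a* changed by 0.09 ± 0.36 in WT and by 0.36 ± 0.44 in DKI (adjusted p = 0.857 and 0.538).

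Between the genotypes the calls among the 10 genes went both ways. On day 3, 3 of 10 were called (*Cd209a* lower, *Clec4a3* and *Clec4d* higher) beside 7.42% of 9740 genes, with 4.21% lower and 3.21% higher. With replicate number as a block these were 2 of 10 (*Clec4a1* and *Clec4a3*, both higher) beside 5.66%, with 2.96% lower and 2.7% higher. On day 6, 3 of 10 were called (*Cd209a* lower, *Clec4a3* and *Clec7a* higher) beside 7.54% of 9842 genes, with 4.82% lower and 2.72% higher. With the block, *Clec4a1*, *Clec4a3* and *Clec7a* were called, all higher, beside 7.31%, with 4.41% lower and 2.9% higher. On day 6 the split of called genes depended on scaling, with 474 lower and 268 higher as deposited and 285 lower and 323 higher after median centring, while the calls of the 10 genes were 1 lower and 2 higher under either. Groups did not overlap for 6 of 10 genes on day 3 (*Cd209a* and *Mgl2* lower, *Clec4a1*, *Clec4a3*, *Clec4d* and *Clec4e* higher) beside 36.3% of all genes, and for 5 of 10 on day 6 (*Cd209a* lower, *Clec4a1*, *Clec4a3*, *Clec4d* and *Clec7a* higher) beside 37.2%. The median difference of the 10 genes was 0.37 on day 3 and 0.86 on day 6, and that of all genes −0.11 and −0.17.

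**Figure D2:**
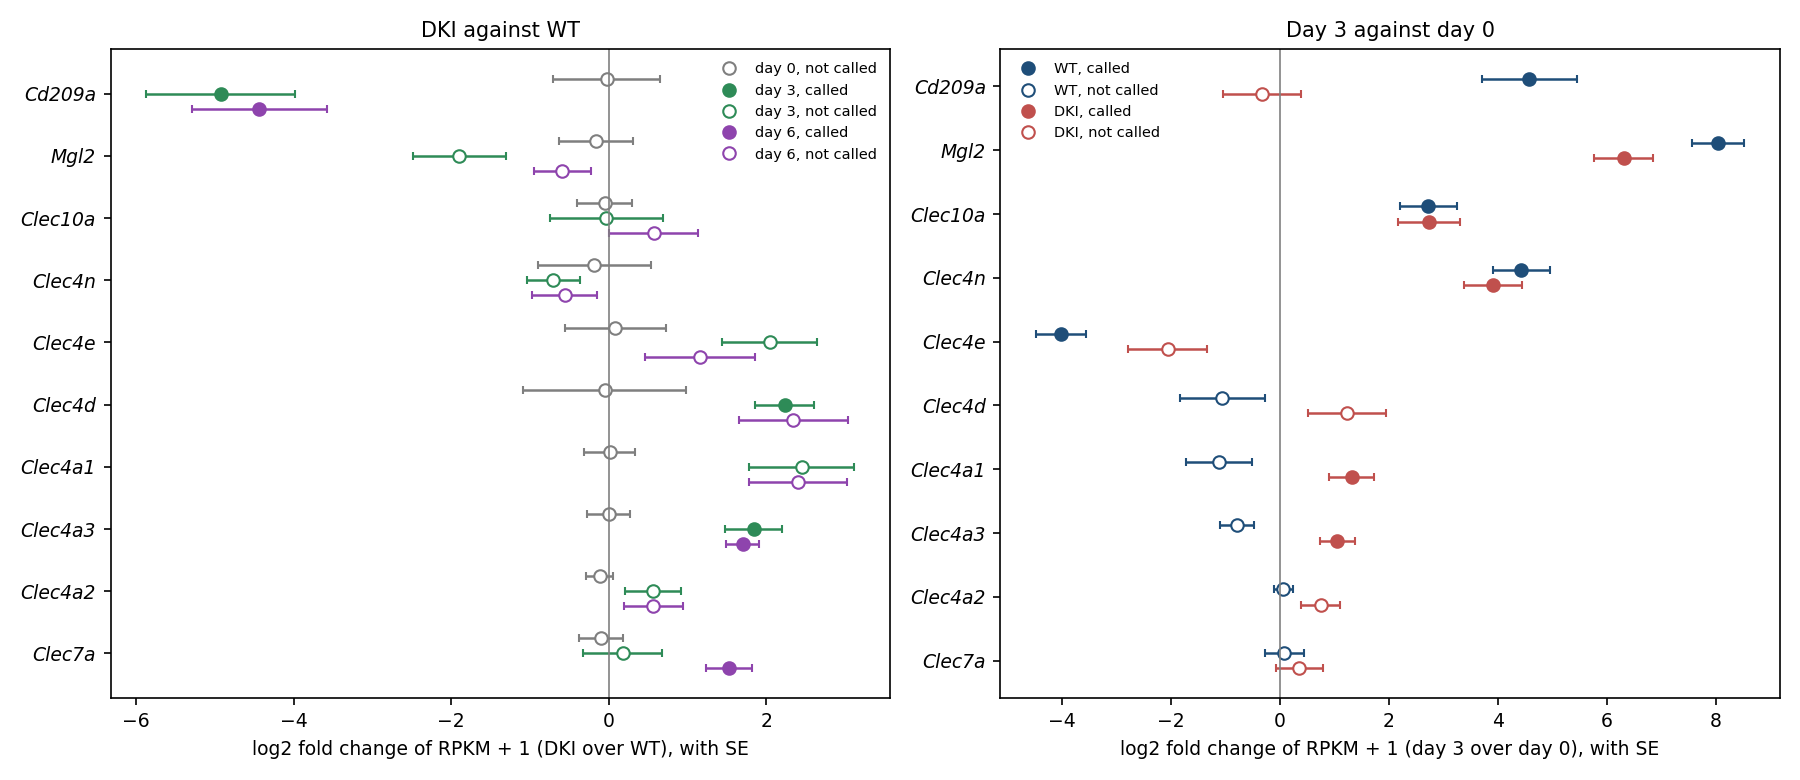
Log2 fold changes of RPKM + 1 with their standard errors for the 10 genes, between the genotypes on days 0, 3 and 6 (left) and from day 0 to day 3 within WT and DKI (right). Filled points were called and open points were not. *Cd209a* stands furthest below 0 between the genotypes, at −4.93 and −4.43, and *Mgl2* furthest above 0 over time, at 8.05 in WT and 6.31 in DKI.

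Over time most of the movement of the 10 genes fell between day 0 and day 3. In WT 4 of 10 genes were called higher (*Mgl2*, *Cd209a*, *Clec4n* and *Clec10a*) and *Clec4e* lower, beside 43.1% of 9938 genes, with 20.3% called higher and 22.8% lower. In DKI 5 of 10 were called higher (*Mgl2*, *Clec4n*, *Clec10a*, *Clec4a1* and *Clec4a3*) and none lower, beside 34.2% of 9922 genes, with 13.1% called higher and 21.1% lower. The WT split of all called genes was 2270 lower and 2013 higher as deposited and 2000 lower and 2267 higher after median centring. The DKI split was 2097 lower and 1297 higher as deposited and 1622 lower and 1743 higher after median centring, under which the same number of the 10 genes was called. The 2 comparisons have no library in common, but the WT and DKI libraries of 1 replicate number deviated together on each day. Whether WT and DKI changed differently was tested as an interaction: 0 of 10 genes were called beside 2.91% of 10212 genes (1.7% lower and 1.2% higher), and with replicate number as a block within each day 4 of 10 were called (*Cd209a* lower, *Clec4a1*, *Clec4a3* and *Clec4d* higher) beside 10.2%, with 5.58% lower and 4.6% higher.

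Between day 3 and day 6 none of the 10 genes was called in WT or in DKI, and neither was any other gene by limma (722 of 9613 genes in WT and 93 of 9540 in DKI had an unadjusted p under 0.05). All 10 differences in WT were negative, from −0.73 for *Clec10a* to −0.19 for *Clec4a2*, with a median of −0.49 beside −0.03 over all genes. In DKI *Mgl2* and *Clec7a* had positive values (0.69 ± 0.54 and 0.65 ± 0.43) and the other 8 negative ones down to −1.25 ± 0.89 for *Clec4e*. The summed RPKM of the 10 genes was 995 to 1648 in WT and 995 to 1719 in DKI on day 0, 3067 to 4827 and 2658 to 3398 on day 3, and 2011 to 3260 and 2662 to 3076 on day 6.

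**Figure D3:**
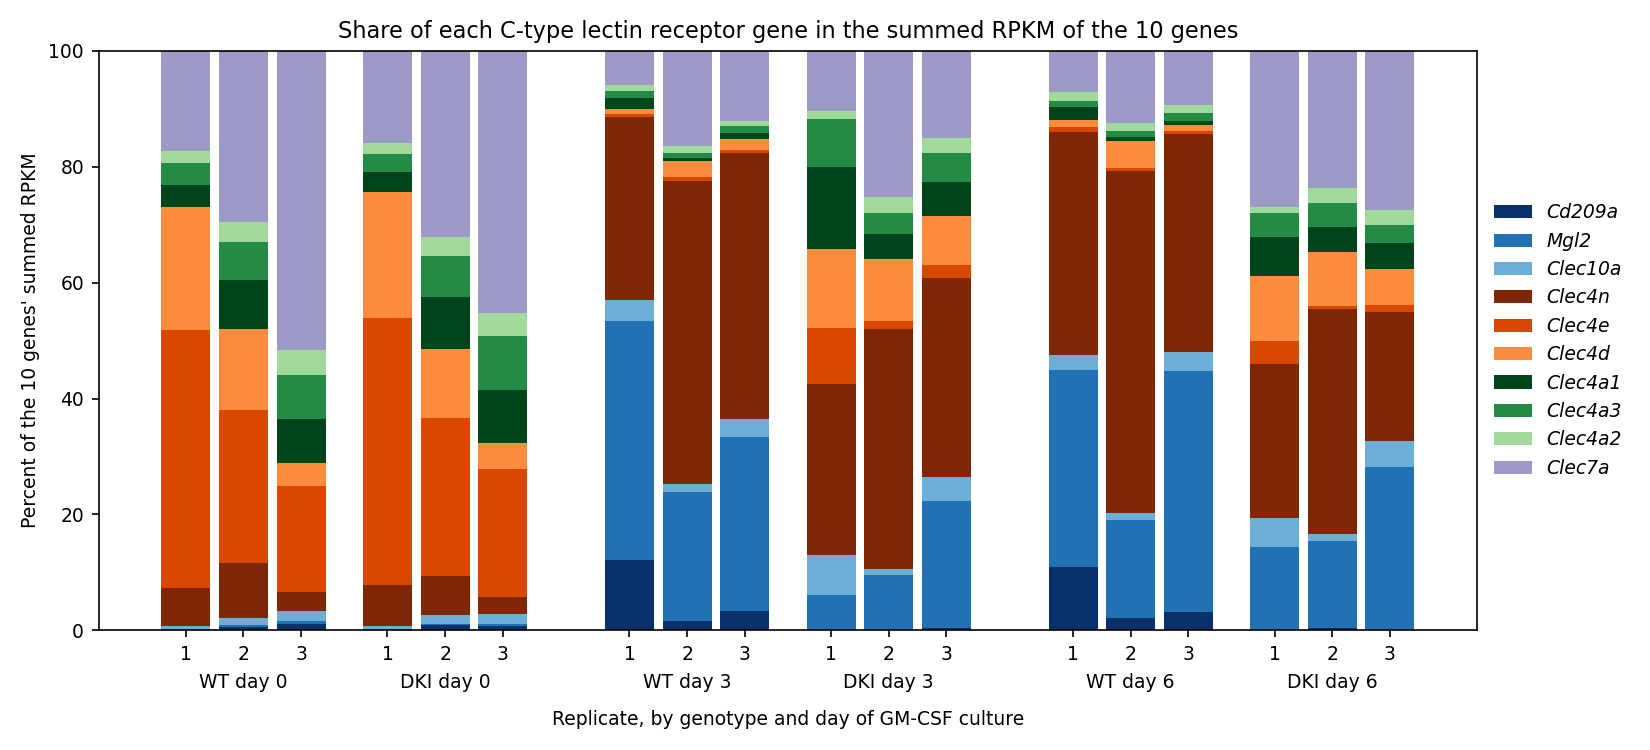
Percent of the summed RPKM of the 10 genes taken by each gene in each library, ordered by day, genotype and replicate. On day 0 *Clec4e* and *Clec7a* take most of the sum, and in the cultured WT libraries *Clec4n* and *Mgl2* do, with *Clec7a* at 23.7 to 27.4% in DKI and 7.20 to 12.5% in WT on day 6.

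The make-up of this sum shifted with culture. On day 0, *Clec4e* took 18.3 to 44.6% of it in WT and 22.1 to 46.0% in DKI, and on day 3 it took 0.429 to 0.777% in WT and 1.38 to 9.74% in DKI. On day 3 *Clec4n* and *Mgl2* took 31.6 to 52.1% and 22.3 to 41.2% in WT, and 29.4 to 41.2% and 6.09 to 21.96% in DKI. The share of *Cd209a* reached 12.2% in 1 WT library of day 3 and stayed at or under 0.436% in all cultured DKI libraries. In the order of mean RPKM on day 3, *Clec4n* (1722 ± 444) and *Mgl2* (1301 ± 557) overlapped in WT and stood above the rest, and in DKI *Clec4n* (1066 ± 313), *Clec7a* (527 ± 298), *Mgl2* (378 ± 250) and *Clec4d* (326 ± 65) each overlapped with the next. On day 6 *Cd209a* was by mean the fourth highest of the 10 genes in WT (161 ± 168 RPKM) and the lowest in DKI (5.84 ± 6.15 RPKM). Its WT range of 63.5 to 354.5 RPKM overlapped that of *Clec4d*, the next gene, and its median of 63.9 RPKM was below the 67.0 RPKM of *Clec10a*.

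Other C-type lectins, a list of 34 genes chosen beside the 10, moved in both directions. On day 3, 4 of 20 tested were called lower in DKI and 3 higher, beside 4.21% lower and 3.21% higher over all genes. On day 6, 3 of 22 were called lower and 2 higher, beside 4.82% and 2.72%. *Mrc1*, the macrophage mannose receptor, held 48.2, 4.47 and 13.3 RPKM in WT and 417, 345 and 276 RPKM in DKI on day 3 (4.45, adjusted p = 0.0236) and was higher on day 6 too (3.29, adjusted p = 0.00926). *Thbd*, which encodes thrombomodulin, was higher on both days (2.36, adjusted p = 0.00458, and 2.24, adjusted p = 0.0114), and *Cd302* on day 3 (1.05, adjusted p = 0.0405). *Ly75*, which encodes the dendritic cell uptake receptor DEC-205, held 13.0, 37.2 and 16.7 RPKM in WT and 2.00, 3.94 and 3.37 RPKM in DKI on day 3 (−2.40, adjusted p = 0.0236). *Cd209c*, a relative of *Cd209a* on chromosome 8, was lower on both days (−3.07, adjusted p = 0.0141, and −2.76, adjusted p = 0.0498, 0.0516 with the block), as was *Clec2l* (−1.80, adjusted p = 0.0144, and −2.30, adjusted p = 0.00673). *Cd69*, an early activation marker, was lower on day 3 (−1.76, adjusted p = 0.0359, but 0.0692 with the block). *Olr1*, which encodes the oxidised LDL receptor LOX-1, was lower on day 6 (−2.56, adjusted p = 0.00803). With the block, 3 were called lower and 3 higher on day 3 (2.96% and 2.7% over all genes), and 5 lower and 4 higher on day 6 (4.41% and 2.9%). The median of the tested genes was −0.19 on day 3 and −0.28 on day 6, close to that of all genes.

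**Figure D4:**
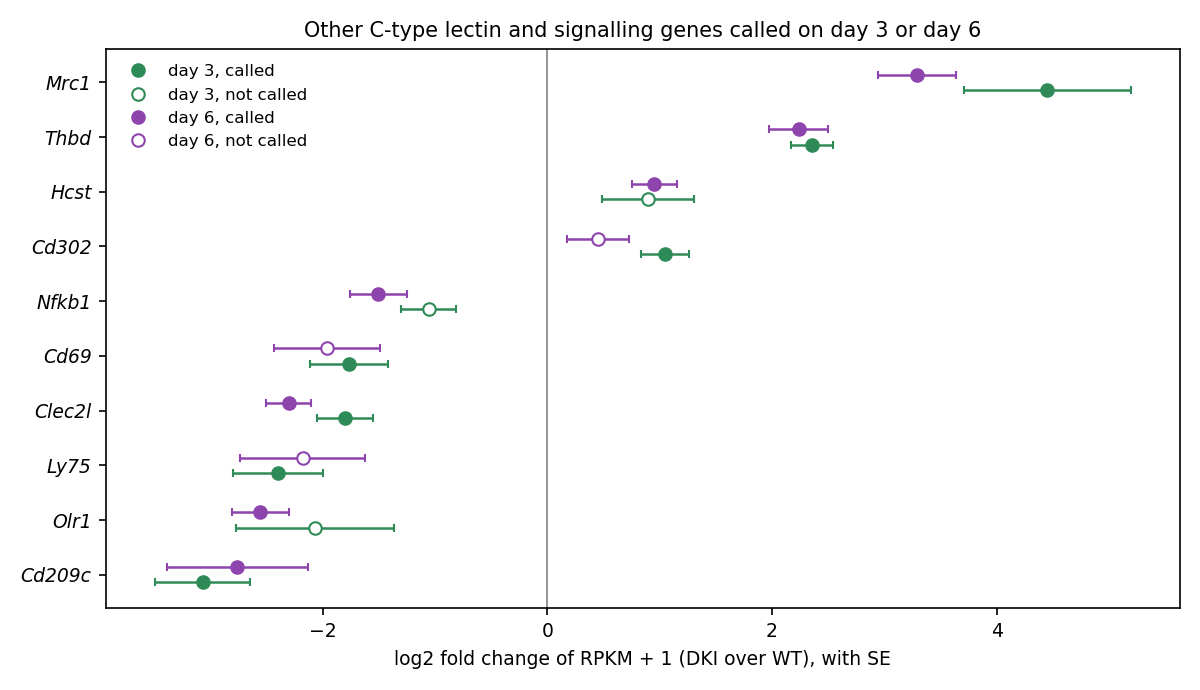
Log2 fold changes of RPKM + 1 (DKI over WT) with their standard errors for the genes of the lists of other C-type lectins and of receptor signalling that were called on day 3 or day 6. Filled points were called and open points were not. *Mrc1* stands furthest above 0, at 4.45 and 3.29, and *Cd209c* furthest below, at −3.07 and −2.76.

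The signalling path below the receptors was followed in 22 listed adaptors, kinases, phosphatases and NF-κB subunits, from *Fcer1g* and *Syk* to *Card9* and *Rela*. Between the genotypes, limma called 0 of the 22 on day 3, with or without the block (5 had an unadjusted p under 0.05), beside 7.42% of all genes. It called 2 on day 6, beside 7.54%. On day 6 *Nfkb1* was lower (−1.504, adjusted p = 0.0268, 0.0488 with the block) and *Hcst*, which encodes the adaptor DAP10, was higher (0.95, adjusted p = 0.0426, 0.0572 with the block). *Relb*, another NF-κB subunit, was called lower with the block only (−1.53, adjusted p = 0.0293, and 0.0953 without it), so that the block gave 2 lower and 0 higher. Over time, 12 were lower and 2 higher from day 0 to day 3 in WT, beside 22.8% lower and 20.3% higher over all genes, and 8 lower and 1 higher in DKI, beside 21.1% and 13.1%.

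Across the 18 libraries the 10 genes fell into patterns that can be described by their nearest neighbours among 10416 genes. These are Pearson correlations of log2(RPKM + 1) over libraries that share days, genotypes and replicate numbers, and are given without a test. *Mgl2* was nearest to *Slamf9* (r = 0.991) and *Cd74* (0.988), *Clec4n* to *Ctnnd1* (0.987) and *Spint1* (0.986), *Clec10a* to *Fcgr2b* (0.948) and *Zdhhc14* (0.921), and *Cd209a* to *Pigx* (0.966) and *Desi1* (0.959). *Clec4e* was nearest to *Irak3* (0.971) and *Nod1* (0.966), and *Clec4d* to *Spsb2* (0.920) and *Sh3bp2* (0.918). *Clec4a1* and *Clec4a3* were each nearest to the other (0.929), followed by *Aoah* for *Clec4a1* (0.902) and *Slc31a1* for *Clec4a3* (0.910), while the nearest genes of *Clec4a2* were *Adam15* (0.8496) and *Zdhhc20* (0.832). *Clec7a* was nearest to *Nrp1* (0.879) and *Tmem165* (0.838). Among pairs of the 10 genes the highest correlations were those of *Clec4a1* with *Clec4a3*, *Clec4n* with *Mgl2* (0.916) and *Clec10a* with *Mgl2* (0.857), and the lowest was that of *Clec4e* with *Mgl2* (−0.899).

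Marker genes of monocytes and dendritic cells were summed beside these genes. The summed RPKM of 7 monocyte markers on day 3 was 823 to 1276 in WT and 1582 to 2931 in DKI, and that of 5 markers of conventional and plasmacytoid dendritic cells was 15.7 to 27.2 in WT and 5.16 to 5.72 in DKI. Of the 7 monocyte markers limma called 0 on day 3 and 0 on day 6, with or without the block (the unadjusted p was under 0.05 for 4 and 1). *Ccr2* had a negative difference on both days (−0.41 and −0.50) and the other 6 had positive ones. On day 3 *Itgam* held 525, 364 and 493 RPKM in WT and 526, 778 and 855 RPKM in DKI. *Csf1r* held 421, 272 and 381 RPKM in WT and 905, 461 and 585 RPKM in DKI. The paper counts *Fcgr1*, also among the 7, as a macrophage signature gene, so the sum does not measure monocytes alone. Of the dendritic cell markers 2 were tested on day 3 and 3 on day 6, and 1, *Zbtb46*, was called lower on each day (with the block, 1 and 0). Within the WT sum of day 3, *Zbtb46* held 15.0, 15.7 and 9.73 RPKM and *Dpp4* 11.6, 3.48 and 4.47 RPKM. *Xcr1*, *Siglech* and *Flt3* held at most 0.194, 0.532 and 1.87 RPKM in any day 3 library. DKI replicate 1 of day 3 held 775 RPKM of *Ly6c2* beside 49.5 and 73.8 RPKM in the other 2 DKI libraries, and it was also the highest DKI library of day 3 in *Clec4a1*, *Clec4a3*, *Clec4e* and *Clec10a* and the lowest in *Cd209a*, *Mgl2*, *Clec4n*, *Clec7a* and *Clec4a2*. Summed markers reached at most 261 RPKM for B and plasma cells, 10.01 RPKM for T and NK cells, 121 RPKM for basophils and mast cells and 14.9 RPKM for erythroid cells in any library. The part of these cell markers in the differences of the lectin receptor genes was not tested.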

How the data were processed

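The authors aligned single-end RNA-seq reads to mm10 with Subread, counted reads per RefSeq gene with featureCounts and deposited RPKM (read counts scaled to transcript length and library size), 1 table of 20298 genes and 18 columns. No value column was left unmapped (0). Versions are not given in the sources used here.

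RPKM values were tested as log2(RPKM + 1) with limma 3.58.1 (R 4.3.3; lmFit, eBayes with trend) for genes with a mean RPKM over 2 in at least 1 compared group. Fold changes are on that scale, which understates changes of low genes. Genes were called at an adjusted p under 0.05 and a fold change over 1.5, limits that the authors applied to counts with edgeR. Comparisons were DKI against WT on each day, consecutive days within each genotype, and genotype by day. Comparisons that share a group share its libraries. The procedure was tested on simulated data. Depth was recovered from RPKM steps of genes with 1 exon: 68 of 70 other low values (97.1%) were whole reads within 0.05 reads.

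Replicates are 3 independent experiments, but the labels do not say what a replicate number marks. Deviations of same-numbered libraries from their group means correlated at 0.163 to 0.865 between genotypes on each day, and at 0.125 to 0.743 between days 3 and 6, so the numbers were taken as pairs there. For replicate 3 between days 3 and 6, a library of another number correlated more highly (WT 0.145 beside 0.125, DKI 0.356 beside 0.320). Between days 0 and 3 same-numbered libraries correlated at −0.208 to 0.180. Where the numbers were taken as pairs, blocked values stand beside results they change, and those from day 0 to day 3 within a genotype are in the closing section.

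The 10 genes and all lists were chosen with earlier results of these data known. Named genes outside the 10 were the mutated genes and the 2 nearest genes of each member. From each of the lists of other C-type lectins and of receptor signalling, up to 4 called genes with the largest difference per direction on days 3 and 6 were named. *Clec4a4* and *Clec4b1* were named for shared stretches. *Relb* was added because the block called it. *Ly6c2* and the other named markers of cell types were named after their values were seen, and *Fcer1g*, *Syk*, *Card9* and *Rela* only as examples of their list. *Stat5b* is given in the closing observations. Alternatives were a pseudocount of 0.1, no filter on low values, median centring, quantile normalization, a fit of all 18 libraries, the block, and omission of each library. Omission of replicate 1 of days 3 and 6 together was chosen after seeing the data. Sequences and positions came from RefSeq (GRCm38.p6, which is mm10), and transcript stretches from GENCODE.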

Additional observations from a re-analysis of the deposited data

Results flagged for a closer look

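The change in genotype difference from day 0 to day 3 passed the threshold for 4 of the 10 genes when libraries of the same replicate number and day were treated as pairs, beside 10.2% of 10212 genes, and for none without that block, beside 2.91%. In this interaction test the log2 estimate was −4.90 for *Cd209a* (adjusted p = 0.0403 with the block, 0.0694 without), 2.44 for *Clec4a1* (0.0157 and 0.158), 1.84 for *Clec4a3* (0.0102 and 0.0741) and 2.29 for *Clec4d* (0.0323 and 0.389). In all 4 genes the day 0 difference was between −0.05 and 0.01, so the estimates are close to the differences on day 3. For *Clec4d*, the standard error without the block was 1.18, and its day 0 values ran from 39.9 to 375 RPKM in an order of replicates that both genotypes shared.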

How the results depend on the processing

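Over 90 differences of the 10 genes (9 comparisons each) and 1280 alternative values, 1199 stayed on their side of the threshold, 55 lost a call and 26 gained one, and no called difference changed sign. Differences called in neither fit changed sign in 96 values, 85 of them on omission of 1 library. A pseudocount of 0.1, median centring and quantile normalization left each number of called receptor genes within 1.5 times. Of the 10 genes, 3 were called between the genotypes on day 3: this fell to 0 without the filter on low values and to 1 without replicate 1 of both genotypes, and omission of single libraries gave 0 to 3. On day 6 the number called, 3, was 1 without the filter, 1 without replicate 1 of both genotypes and 0 to 3 on omission of single libraries. Without replicate 1 of both genotypes all 3 calls of day 6 were lost, and the 1 called was *Clec4a1* (2.92, adjusted p = 0.0445). The 5 calls from day 0 to day 3 in DKI became 3 without the filter and 3 to 5 on omission of single libraries. In the interaction from day 0 to day 3, where 0 were called, a fit of all 18 libraries called 1, replicate number as a block called 4, and omission of single libraries gave 0 to 1. On day 3 the fit of all 18 libraries called *Clec4a1* (adjusted p = 0.0181) and *Mgl2* (−1.90, adjusted p = 0.0253) and lost *Clec4d* (0.0883), on day 6 it called *Clec4a1* (0.0174), and from day 0 to day 3 in DKI it called *Clec4e* (0.0324) and lost *Clec4a1* (0.0978). Its call in the interaction was *Clec4a3*. From day 0 to day 3, where the replicate numbers were not taken as pairs, the block in DKI lost *Clec4a1* (adjusted p = 0.102) and *Clec4a3* (0.0952) and gained *Clec4e* (0.0185), and in WT it called the same number of receptor genes, 5. Apart from the calls named here and in the report, the block changed none for these genes.

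Counts over all genes moved more. The 723 genes called on day 3 became 358 without the filter, 1359 in the fit of all 18 libraries, 369 without replicate 1 of both genotypes and 197 to 715 on omission of single libraries. The 742 of day 6 became 187, 1573, 38 and 90 to 984. The 3394 from day 0 to day 3 in DKI became 1976 without DKI replicate 2 of day 0, and the 297 of the interaction became 1040 with the block and 125 to 336 on omission of single libraries. The fit of all 18 libraries called 6 genes on day 0 and 16 from day 3 to day 6 in WT, where 0 were called otherwise, except 1 without WT replicate 2 of day 6. The causes were not tested, beyond the larger number of genes tested without the filter and the smaller number of libraries on omission. For genes outside the 10, omissions are given as these counts and not gene by gene. With 3 libraries a group, omission of 1 library ended most single calls between the genotypes, and intervals cover the spread between these libraries.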

Other observations

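*Stat5b*, the second mutated gene, held 17.1, 25.2 and 22.8 RPKM in WT and 14.9, 12.6 and 16.5 RPKM in DKI on day 3, and 18.7, 20.1 and 29.0 RPKM in WT and 12.8, 13.3 and 14.4 RPKM in DKI on day 6.
The ratio of *Clec4a1* to *Clec4a3* RPKM was 0.984 to 1.30 in the 6 libraries of day 0. On day 3 it was 0.527, 0.861 and 1.45 in the WT libraries in rising order and 1.19 to 1.68 in DKI, and on day 6 it was 0.478 to 2.14 in WT and 1.03 to 1.68 in DKI. The ratio of *Clec4d* to *Clec4e* RPKM was 0.203 to 0.530 on day 0 and above 1 in every cultured library (1.40 to 7.81 on day 3 and 1.55 to 18.3 on day 6).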
